A study of Mus musculus and Homo sapiens with 34 samples.

Results

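A pair of mouse lung tumour cultures with the same listed genotype was compared without inhibitor: 3311, grown as a cell line, and 1027B, grown as organoids. Each was represented by 2 RNA-seq libraries, so the comparison used 4 of the 34 libraries of the series, chosen by label (vehicle or control, 48 h) and joined over the 15116 genes listed in both count tables. For both cultures the labels give an activatable oncogene together with p53frt, Rosa-FSF-CreERT2, Foxa1flox and Foxa2flox. The named alleles are a p53 gene flanked by Flp sites, a tamoxifen-inducible Cre at the Rosa26 locus, and Foxa1 and Foxa2 genes flanked by Cre sites. No agent that would activate the Cre is named for these 4 libraries. The 3311 cells were kept in DMEM with 10% serum and the 1027B organoids in medium made up to 50% with L-WRN conditioned medium. The 3311 columns are named for DMSO and the 1027B columns for a control. Each culture is a single line, and line, form of culture, medium, vehicle and count table all differ together between the groups and cannot be told apart. Nothing in the labels says that the 2 libraries of a group came from separate cultures, so the p-values measure only the spread between these libraries.

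Lung adenocarcinomas arise largely from alveolar type 2 cells, whose identity is kept by the transcription factor NKX2-1. Tumours that lose or dampen that identity can turn on programmes of the stomach, intestine or liver, organs of the same endodermal origin, in which FOXA1, FOXA2 and HNF4A are central regulators. Organoids grow as closed epithelial structures in matrix, and L-WRN medium supplies WNT3A, R-spondin 3 and noggin, which activate WNT signalling and block BMP signalling. A line grown on plastic in serum has none of these factors added, and lines derived from tumours can drift between epithelial and mesenchymal states.

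The 3311 libraries held 28634922 and 25951058 counts and the 1027B libraries 21245150 and 19692517, of which 99.0% to 99.3% fell on joined genes. A level of 3 counts, the floor used below, corresponded to 0.107 to 0.158 CPM (counts scaled to 1000000 per library, with TMM factors). Replicates correlated across genes with r = 0.983 for 3311 and 0.984 for 1027B, and differed by more than counting noise. Genes of the mitochondrial genome took 1.44% and 1.45% of counts in 3311 and 3.31% and 1.504% in 1027B, where replicate 1 stood apart. Both cultures carried epithelial RNA: 4 epithelial markers summed to 5038 and 6023 CPM in 3311 and 6651 and 6086 CPM in 1027B. The label of 3311 as lung was less plain by markers than that of 1027B. The alveolar sum of 4197 and 5035 CPM in 3311 came almost wholly from Sftpb, at 4029 and 4683 against 5782 and 9566 CPM, while Sftpc, the marker that defines alveolar type 2 cells, stood at 0.07105 and 0.0378 against 26.03 and 102 CPM.

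In total 14028 genes were tested with edgeR's quasi-likelihood F-test, and a gene was called when its Benjamini-Hochberg adjusted p was under 0.05. The test called 7339 genes (52.3%), of which 3662 (26.1%) were higher in 3311 and 3677 (26.2%) lower. At least 2-fold differences made up 4663 of the calls (33.2% of genes tested). Differences of at least 10-fold were found for 530 genes higher and 484 genes lower in 3311, and of at least 100-fold for 132 and 105. Some genes were tested only because 1 culture expressed them: 839 reached the count limit in 3311 alone and 761 in 1027B alone. The counts of list members below therefore use genes that reached the limit in both cultures, of which 25.5% were called higher and 25.9% lower in 3311 (12239 genes, with a median log2 fold change that rounds to 0). Genes that reached it in 1 culture only are outside those counts and are marked as such; they could enter the test only through the culture where they are high. Lack of overlap was common: for 11041 of the genes tested (78.7%) both libraries of 1 culture lay above both of the other. Statements below that both libraries of a culture lay above or below the others thus describe what most genes showed. A log2 fold change is 3311 minus 1027B throughout, so a positive value means higher in 3311. With 2 libraries against 2 no exact permutation test can pass 0.05 (the smallest two-sided p is 0.333), and all p-values come from the model.

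**Figure D1:**
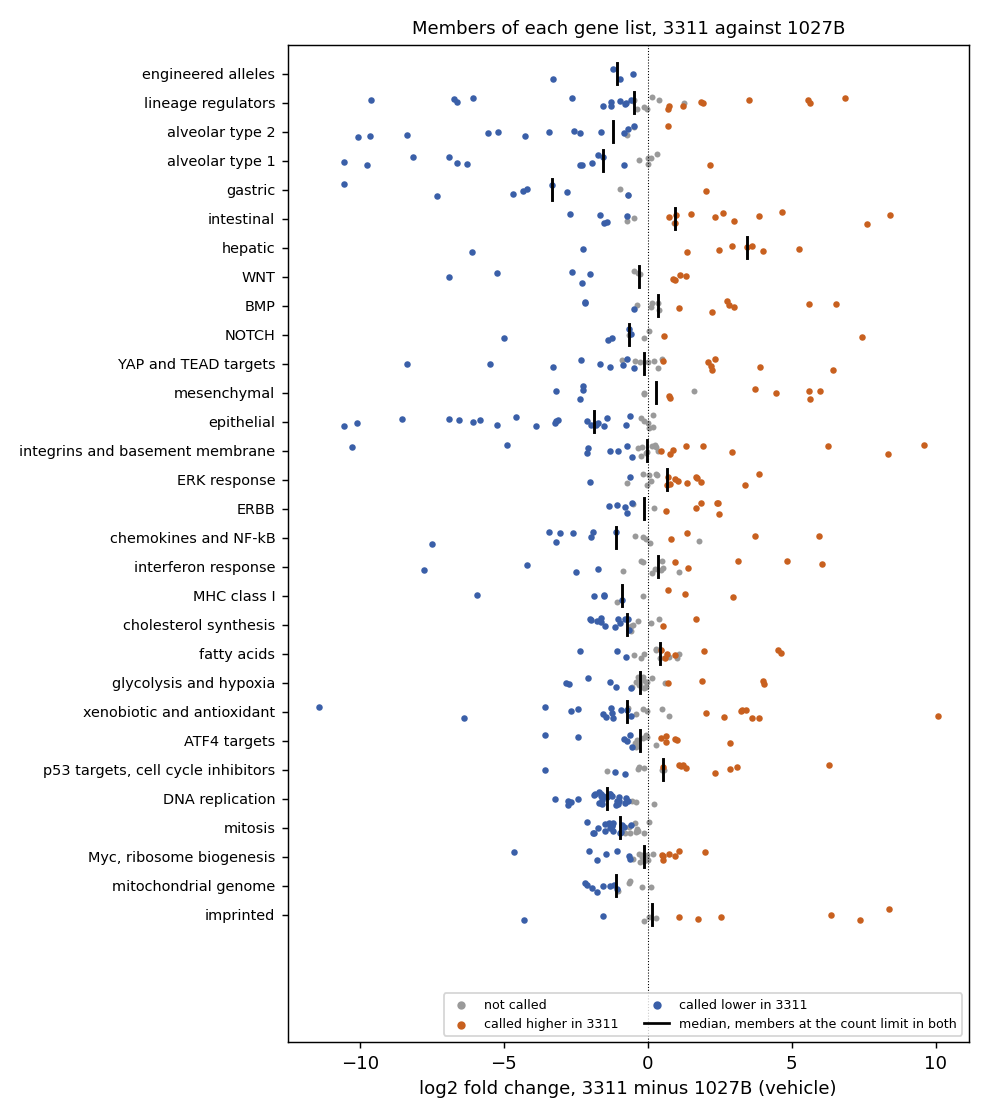
Each point is 1 tested gene of 1 of 30 gene lists, placed by its log2 fold change between 3311 and 1027B vehicle libraries (x axis; genes with no counts in 1 culture are placed at the bound that the floor allows). Black bars are medians of the members that reached the count limit in both cultures: -1.42 for DNA replication, -1.87 for the epithelial list and 3.45 for the hepatic list.

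Genes that carry engineered alleles were checked first. Trp53, the p53 tumour suppressor, had 8.06 and 7.38 CPM in 3311 and 77.6 and 73.3 CPM in 1027B (log2 fold change -3.29 ± 0.18 (SE), adjusted p = 4.34e-06). Its transcript was present in both cultures and lower in both 3311 libraries; gene counts pool all exons and do not show which exons were read. Foxa1 had 26.8 and 30.6 CPM in 3311 and 69.4 and 62.5 CPM in 1027B (log2 fold change -1.20 ± 0.17 (SE), adjusted p = 5.41e-04), and Foxa2 had 61.1 and 61.995 CPM in 3311 and 122 and 115 CPM in 1027B (log2 fold change -0.94 ± 0.14 (SE), adjusted p = 9.24e-04). Both pioneer factors were expressed in every library and were lower in the 3311 libraries.

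The lineage regulators differed in both directions. Of 25 list members at the count limit in both cultures, 7 were called higher and 11 lower in 3311 (median log2 fold change -0.48), where 25.5% and 25.9% of all such genes were. Over all tested members the median was -0.36, and it turned to 0.084 without genes that overlap another gene. Nr1i2, the xenobiotic receptor PXR, had 47.1 and 74.6 CPM in 3311 and 1.08 and 1.47 CPM in 1027B (log2 fold change 5.58 ± 0.32 (SE), adjusted p = 6.16e-06). Nr1h4, the bile acid receptor FXR, and Nr5a2, the nuclear receptor LRH-1, reached the count limit in 3311 only, at 13.9 and 22.1 against 0.0941 and 0.2104 CPM and 21.8 and 17.8 against 0.424 and 0.368 CPM (log2 fold changes 6.86 and 5.62). Pdx1, a factor of pancreas and duodenum, stood at 8.88 and 16.3 against 0.941 and 1.26 CPM (log2 fold change 3.51). For each of these 4 genes both 3311 libraries lay above both 1027B libraries.

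The regulators that were low in 3311 included epithelial ETS factors. Ehf, which reached the limit in 1027B only, had 0.426 and 0.416 CPM in 3311 and 301 and 356 CPM in 1027B (log2 fold change -9.59 ± 0.25 (SE), adjusted p = 5.57e-07), and Elf5 had 0.497 and 0.416 CPM in 3311 and 34.9 and 63.3 CPM in 1027B (log2 fold change -6.73 ± 0.40 (SE), adjusted p = 6.85e-06). Hopx, a homeodomain protein of alveolar type 1 cells that shares part of its length with another gene, stood at 0.462 and 0.454 against 29.5 and 62.1 CPM. Grhl2, a grainyhead factor that maintains epithelial junctions, had 0.746 and 1.66 CPM in 3311 and 79.1 and 80.01 CPM in 1027B (log2 fold change -6.05 ± 0.32 (SE), adjusted p = 4.27e-06). All 4 were expressed in both 1027B libraries and lay under 2 CPM in both 3311 libraries. The same genes were expressed in 3154, a further mouse organoid culture of the series, with ethanol and no inhibitor: Ehf at 238 to 455 CPM, Elf5 at 18.5 to 162 CPM and Grhl2 at 54.1 to 85.02 CPM over 4 libraries. The 3154 organoids have another genotype than 3311 and 1027B, here and wherever they are set beside them. Those levels come from 2 other tables that were scaled separately.

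The 2 regulators for which this tumour type is best known differed little. Hnf4a, the nuclear receptor of liver and gut, had 357.8 and 455 CPM in 3311 and 434 and 458 CPM in 1027B (log2 fold change -0.13 ± 0.17 (SE), adjusted p = 0.547) and was not called. Replicate 1 of 3311 lay below both 1027B libraries and replicate 2 between them. Nkx2-1 had 237 and 173 CPM in 3311 and 303 and 307 CPM in 1027B (log2 fold change -0.57 ± 0.18 (SE), adjusted p = 0.0291), lower in both 3311 libraries. That call was lost without 3311 replicate 2 (adjusted p = 0.112) and without 1027B replicate 2 (0.0587). In the 3154 ethanol libraries Hnf4a ranged over 193 to 396 CPM and Nkx2-1 over 177 to 303 CPM.

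The epithelial list was shifted in 1 direction. Of its 24 members at the count limit in both cultures, 18 were called lower and 0 higher in 3311 (median log2 fold change -1.87). Esrp1, a splicing factor of epithelial cells, had 2.56 and 2.46 CPM in 3311 and 139.7 and 146 CPM in 1027B (log2 fold change -5.83 ± 0.19 (SE), adjusted p = 6.15e-07). St14, the membrane protease matriptase, had 1.49 and 1.93 CPM in 3311 and 168 and 157 CPM in 1027B (log2 fold change -6.57 ± 0.21 (SE), adjusted p = 6.23e-07), and its relative Prss8 stood at 1.39 and 1.93 against 57.3 and 66.9 CPM (log2 fold change -5.23). Neither protease overlapped between the cultures, as was so for 78.7% of all genes tested. The adhesion molecule Epcam, by contrast, had 82.2 and 126 CPM in 3311 and 452 and 438 CPM in 1027B (log2 fold change -2.10 ± 0.22 (SE), adjusted p = 1.20e-04), and E-cadherin, Cdh1, had 574 and 751 CPM in 3311 and 1167 and 1081 CPM in 1027B (log2 fold change -0.76 ± 0.19 (SE), adjusted p = 0.0105), smaller differences than those of Esrp1 and St14. Without 3311 replicate 1 the call of Cdh1 was lost (adjusted p = 0.0533).

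In the epithelial list 3 members reached the count limit only in 1027B. Rab25, a small GTPase of apical vesicle recycling, had 0.0355 and 0.265 CPM in 3311 and 174 and 162 CPM in 1027B (log2 fold change -10.11 ± 0.38 (SE), adjusted p = 1.04e-06). Cldn4, a tight junction claudin, had 0.178 and 0.908 CPM in 3311 and 217 and 179.9 CPM in 1027B (log2 fold change -8.53 ± 0.44 (SE), adjusted p = 3.67e-06), and Cldn18, the claudin of lung and stomach, had 0.178 and 0.0378 CPM in 3311 and 151 and 189 CPM in 1027B (log2 fold change -10.53 ± 0.36 (SE), adjusted p = 6.89e-07). In 3311 all 3 were under 1 CPM in both libraries. The 3154 ethanol libraries held Cldn18 at 2.54 to 10.6 CPM, far under 1027B, and Cldn4 at 383 to 484 CPM, above it. Simple keratins showed another pattern: Krt8 at 1957 and 2776 against 2821 and 2767 CPM, Krt18 at 2511 and 2259.7 against 2212 and 2019 CPM and Krt19 at 2079 and 3286 against 2263 and 2463 CPM were not called (adjusted p = 0.39, 0.462 and 0.561). Krt7, also a simple keratin, stood at 10.8 and 21.3 against 2126 and 1712 CPM (log2 fold change -6.90 ± 0.38 (SE), adjusted p = 4.76e-06), with both 3311 libraries far under both 1027B libraries.

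Grainyhead proteins recognise the letters AACCNGTT, searched here on both strands (AACNGGTT is the other strand) in the 250 bases before the first start that RefSeq lists for each gene (GRCm38.p6). Of the 29 epithelial list members 21 had a promoter entry, and 2 of the 21 (9.52%) held the letters, against 463 of all 27025 promoters (1.71%). The 2 genes, Rab25 and Cgn, are shown because Grhl2 and both genes were low in 3311. Rab25 lies at chr3:88548280-88548529, minus strand, and Cgn at chr3:94786483-94786732, minus strand. Capitals mark the matched letters, which are a description of the sequence and not evidence of binding.
Rab25: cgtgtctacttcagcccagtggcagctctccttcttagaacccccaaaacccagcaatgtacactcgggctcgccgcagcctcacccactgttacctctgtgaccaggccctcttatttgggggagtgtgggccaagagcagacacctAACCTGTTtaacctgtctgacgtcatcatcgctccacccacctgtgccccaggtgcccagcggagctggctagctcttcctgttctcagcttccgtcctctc
Cgn: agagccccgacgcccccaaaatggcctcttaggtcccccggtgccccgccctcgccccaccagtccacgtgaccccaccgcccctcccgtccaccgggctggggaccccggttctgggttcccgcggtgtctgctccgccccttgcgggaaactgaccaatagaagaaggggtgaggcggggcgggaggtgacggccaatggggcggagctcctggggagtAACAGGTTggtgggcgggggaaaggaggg
Cgn, a cytoplasmic protein of tight junctions, had 44.2 and 54.7 CPM in 3311 and 198 and 184 CPM in 1027B (log2 fold change -1.95 ± 0.17 (SE), adjusted p = 4.47e-05). It was lower in both 3311 libraries but not close to the floor, unlike Rab25.

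Several mesenchymal genes were high in 3311, and others were low. Of 10 members at the limit in both cultures, 5 were called higher and 3 lower (median log2 fold change 0.30), where 25.5% and 25.9% of all such genes were. Over all 14 tested members, 4 of them at the limit in 1 culture only, 7 were higher and 4 lower (median log2 fold change 0.76). Of the 32 list members 9 are listed for 3311 only and 0 for 1027B only, so a shift of the whole list was not tested. Vim, the intermediate filament of mesenchymal cells, had 3645 and 2632 CPM in 3311 and 29.6 and 70.6 CPM in 1027B (log2 fold change 5.97 ± 0.45 (SE), adjusted p = 2.25e-05). Tpm2, a tropomyosin of contractile cells, had 84.9 and 68.1 CPM in 3311 and 1.27 and 1.89 CPM in 1027B (log2 fold change 5.60 ± 0.26 (SE), adjusted p = 2.54e-06). Itga5, the fibronectin receptor subunit, reached the limit in 3311 only, at 21.8 and 25.9 against 0.235 and 0.736 CPM (log2 fold change 5.63). In each case both 3311 libraries exceeded both 1027B libraries, and in the 3154 ethanol libraries Vim lay at 0.473 to 4.16 CPM and Itga5 at 0 to 0.237 CPM. Tnc, the matrix glycoprotein tenascin C, stood at 44.4 and 49.8 against 1.84 and 2.47 CPM (log2 fold change 4.45). Mmp14, a membrane-bound matrix protease, was lower in 3311, at 7.105 and 8.02 against 36.9 and 34.5 CPM (log2 fold change -2.24 ± 0.20 (SE), adjusted p = 6.21e-05). S100a4 was also lower in 3311, at 0.888 and 0.832 against 5.93 and 2.79 CPM, as was the smooth muscle actin Acta2, which reached the limit in 1027B only, at 0.213 and 0.265 against 1.69 and 2.68 CPM. Zeb1, Zeb2 and Cdh2, core genes of the mesenchymal state, are listed for 3311 only and were not analysed for 1027B. They stood at 46.9 and 43.5 CPM, 11.9 and 10.4 CPM and 23.6 and 26.01 CPM.

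Of 23 genes of the basement membrane and its receptors at the limit in both cultures, 7 were called higher and 7 lower in 3311, near the shares of 25.5% and 25.9% over all such genes. Nid1, nidogen 1, a linker of laminin and collagen IV, had 1474 and 1460.3 CPM in 3311 and 2.45 and 1.26 CPM in 1027B (log2 fold change 9.61 ± 0.33 (SE), adjusted p = 7.16e-07). Lama3, the laminin alpha chain of epithelial hemidesmosomes, reached the limit in 1027B only and had no counts in either 3311 library and 153 and 120.2 CPM in 1027B (at least 1242-fold lower in 3311, adjusted p = 1.21e-06). The 2 genes differed in opposite directions. Lamc1, the common laminin gamma chain, was higher in 3311, at 1069 and 978 against 250.3 and 289 CPM (log2 fold change 1.92). Among the integrins, Itgb3, a vitronectin receptor subunit, reached the limit in 3311 only, at 90.02 and 76.3 against 0.282 and 0.2104 CPM (log2 fold change 8.36 ± 0.28 (SE), adjusted p = 6.42e-07). Itgb6, the epithelial subunit that activates TGF-beta, had 3.13 and 5.14 CPM in 3311 and 138 and 109 CPM in 1027B (log2 fold change -4.90 ± 0.27 (SE), adjusted p = 4.88e-06), and Itgb4, of the laminin receptor of hemidesmosomes, stood at 63.7 and 90.6 against 161 and 151 CPM (log2 fold change -1.02). Itga3 and Itga6, alpha subunits of laminin receptors, were not called, at 228 and 306 against 318 and 293 CPM and 815 and 924 against 761 and 702 CPM.

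**Figure D2:**
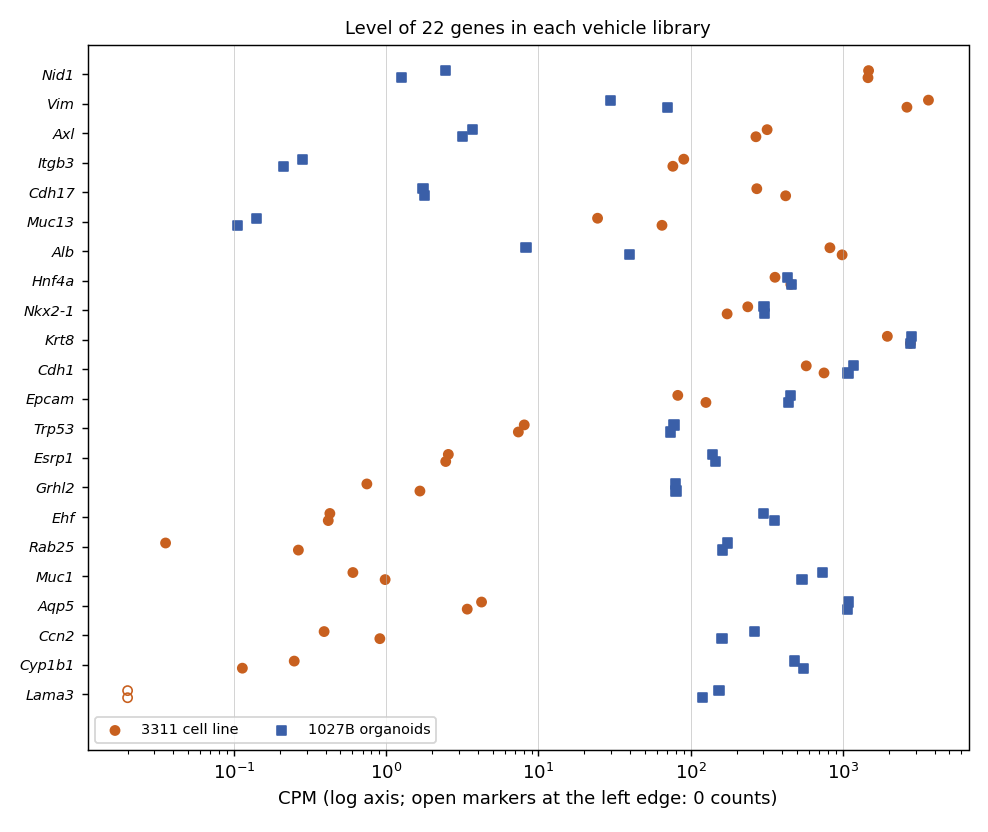
CPM (x axis, log scale) of 22 genes in each of the 4 vehicle libraries; circles are the 2 libraries of the 3311 line and squares the 2 libraries of the 1027B organoids, and open circles at the left edge stand for 0 counts. Nid1, Vim and Axl lie to the right in 3311, Krt8 and Hnf4a lie close together, and Rab25, Muc1 and Cyp1b1 lie at or under 1 CPM in 3311.

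Alveolar type 2 genes were mostly lower in 3311, with 1 exception. Of 12 members at the limit in both cultures, 9 were called lower and 1 higher (median log2 fold change -1.21). In RNA from whole cultures, fewer cells of a type and less RNA per cell cannot be told apart. Sftpb, surfactant protein B, was abundant in both cultures, at 4029 and 4683 against 5782 and 9566 CPM (log2 fold change -0.82 ± 0.28 (SE), adjusted p = 0.036), and Abca3, the lipid pump of lamellar bodies, stood at 239 and 258 against 337 and 361 CPM (log2 fold change -0.49 ± 0.15 (SE), adjusted p = 0.0252). These 2 calls were unsteady. Without 3311 replicate 1 and without 1027B replicate 2 both were lost (adjusted p = 0.143 and 0.249 for Sftpb, 0.0892 and 0.158 for Abca3). Sftpb also lost its call without 3311 replicate 2 (0.0680), with replicate number as a term (0.0887) and with all 10 libraries in 1 fit (0.0972), and Abca3 without 1027B replicate 1 (0.0665). The mucin Muc1 had 0.604 and 0.983 CPM in 3311 and 732 and 538 CPM in 1027B (log2 fold change -9.64 ± 0.32 (SE), adjusted p = 6.42e-07), with no overlap, as for 78.7% of all genes tested. Etv5, which maintains type 2 cells and responds to ERK, was the member called higher, at 169 and 153 against 99.9 and 98.6 CPM (log2 fold change 0.70 ± 0.15 (SE), adjusted p = 0.00439). Outside these counts, Sftpc, Sftpa1 and Napsa reached the limit in 1027B only. Sftpc, surfactant protein C, had 0.07105 and 0.0378 CPM in 3311 and 26.03 and 102 CPM in 1027B (a ratio of 1122, 1027B over 3311, 95% counting interval 384 to 5446, adjusted p = 6.98e-05), and the 2 organoid libraries differed widely. In the 3154 ethanol libraries it ranged over 168 to 5131 CPM. Sftpa1, surfactant protein A, stood at 0.213 and 0.265 against 58.04 and 103 CPM (log2 fold change -8.37 ± 0.42 (SE), adjusted p = 3.08e-06), and Napsa, the protease that processes surfactant protein B, at 0.426 and 0.3404 against 10.3 and 18.5 CPM (log2 fold change -5.20).

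Of 15 alveolar type 1 genes at the limit in both cultures, 9 were called lower and 1 higher in 3311. Fewer were called lower when either 3311 library or 1027B replicate 2 was left out, and more were called higher without 1027B replicate 2. Aqp5, a water channel, had 4.23 and 3.404 CPM in 3311 and 1093 and 1071 CPM in 1027B (log2 fold change -8.14 ± 0.23 (SE), adjusted p = 5.63e-07). Ager, the receptor RAGE and a defining marker of type 1 cells, had 15.7 and 12.2 CPM in 3311 and 24.4 and 112 CPM in 1027B (log2 fold change -2.29 ± 0.58 (SE), adjusted p = 0.0112), and Emp2 stood at 231 and 235 against 740.3 and 808 CPM (log2 fold change -1.73). All 3 were higher in both organoid libraries, though the call of Ager was lost without 3311 replicate 2 (adjusted p = 0.0718). Rtkn2, a gene found in type 1 cells, was the exception, at 33.3 and 30.5 against 4.99 and 9.42 CPM (log2 fold change 2.15 ± 0.30 (SE), adjusted p = 6.15e-04). Cav1, the caveolae protein, stood at 14.7 and 17.2 against 16.1 and 15.6 CPM and was not called (adjusted p = 0.966).

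Among genes at the limit in both cultures, gastric genes were more often lower in 3311 and intestinal and hepatic genes more often higher. For the intestinal genes this depended on 3311 replicate 2. In the gastric list 5 of 7 members were called lower and 0 higher (median log2 fold change -3.34). Gkn2, a secreted gastrokine of surface mucous cells, had 29.3 and 40.1 CPM in 3311 and 784 and 599 CPM in 1027B (log2 fold change -4.32 ± 0.24 (SE), adjusted p = 4.77e-06). Ctse, the protease cathepsin E, had 10.2 and 14.1 CPM in 3311 and 255 and 192 CPM in 1027B (log2 fold change -4.20 ± 0.24 (SE), adjusted p = 5.20e-06), and Psca, a surface antigen of stomach, stood at 8.56 and 10.4 against 101 and 89.7 CPM (log2 fold change -3.34). These 3 were detected in both cultures. In the 3154 ethanol libraries Gkn2 ranged over 37.9 to 67.4 CPM and Ctse over 7.77 to 143 CPM, both under both 1027B libraries. Cym, the stomach protease chymosin, reached the limit in 1027B only and had no counts in either 3311 library and 21.9 and 12.99 CPM in 1027B (at least 159-fold lower in 3311, adjusted p = 2.62e-05). The sulfotransferase Sult1c2 went the other way, reaching the limit in 3311 only, at 0.533 and 0.681 against 0 and 0 CPM (adjusted p = 0.00466). Tff1, Muc5ac and Anxa10, 3 genes of surface mucous cells, are listed for 1027B only and were not analysed for 3311. They stood at 2712 and 1772 CPM, 541 and 703 CPM and 416 and 217 CPM.

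In the intestinal list 10 of 18 members were higher and 5 lower in 3311 (median log2 fold change 0.94). Without 3311 replicate 2 the numbers higher and lower were nearly even, and without 3311 replicate 1 fewer were lower. Cdh17, the liver-intestine cadherin, had 272 and 420.4 CPM in 3311 and 1.74 and 1.79 CPM in 1027B (log2 fold change 7.61 ± 0.30 (SE), adjusted p = 1.19e-06). Muc13, a membrane mucin of enterocytes, had 24.4 and 64.8 CPM in 3311 and 0.141 and 0.105 CPM in 1027B (log2 fold change 8.43 ± 0.68 (SE), adjusted p = 3.09e-05), reaching the limit in 3311 only. Both genes were expressed in 3154, at 30.7 to 90.2 CPM and 26.4 to 77.7 CPM, so the 1027B libraries had the lowest levels of the 3 cultures. Lgals4, a galectin of gut epithelium, was closer between the cultures, at 549.6 and 724 against 341 and 308 CPM (log2 fold change 0.97 ± 0.19 (SE), adjusted p = 0.00286). Lower in 3311 were Phgr1 at 9.63 and 22.5 against 81.2 and 128 CPM (log2 fold change -2.70), Cdhr2, which links microvilli, at 75.6 and 146 against 328 and 304 CPM (log2 fold change -1.51), and the goblet cell mucin Muc2 at 16.3 and 19.97 against 32.7 and 63.5 CPM (log2 fold change -1.40). Cdx2, the master regulator of intestine, is listed for 3311 only, at 105 and 128 CPM.

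Of 7 hepatic genes at the limit in both cultures, 6 were higher and 1 lower in 3311 (median log2 fold change 3.45). Alb, serum albumin, had 821 and 988 CPM in 3311 and 8.28 and 39.6 CPM in 1027B (log2 fold change 5.24 ± 0.64 (SE), adjusted p = 2.79e-04). Afp, its fetal counterpart, had 308 and 559 CPM in 3311 and 31.1 and 38.5 CPM in 1027B (log2 fold change 3.64 ± 0.30 (SE), adjusted p = 3.30e-05), and Ttr, the carrier transthyretin, had 48.1 and 130.2 CPM in 3311 and 4.75 and 11.7 CPM in 1027B (log2 fold change 3.45 ± 0.53 (SE), adjusted p = 1.00e-03). All 3 carriers were higher in both 3311 libraries. Rbp4, the retinol carrier that pairs with transthyretin, stood at 879.9 and 779.7 against 103 and 112 CPM (log2 fold change 2.94), and transferrin, Trf, at 5111 and 5266 against 1629.5 and 2389 CPM (log2 fold change 1.37). The haem carrier Hpx was lower, at 1.599 and 1.25 against 7.34 and 6.05 CPM (log2 fold change -2.23 ± 0.36 (SE), adjusted p = 0.00116). In 3154, Alb ranged over 0.516 to 16.2 CPM and Afp over 41.1 to 355 CPM. Serpind1, a clotting inhibitor that reached the limit in 1027B only, was also lower in 3311, at 0.107 and 0.3404 against 10.1 and 21.2 CPM (log2 fold change -6.11). Fgb and F5, which encode a fibrinogen chain and a clotting factor, are listed for 3311 only, at 52.8 and 54.99 CPM and 90.3 and 94.1 CPM.

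A pair of genes induced by WNT signalling gave no reads in 3311. Axin2, a scaffold that WNT induces to dampen its own signal, had no counts in either 3311 library and 16.5 and 9.47 CPM in 1027B (at least 118-fold lower in 3311, adjusted p = 4.28e-05). Lgr5, the R-spondin receptor of stem cells, had no counts in either 3311 library and 5.65 and 2.58 CPM in 1027B (at least 37.4-fold lower in 3311, adjusted p = 3.42e-04). Both reached the limit in 1027B only. Lgr4, the related receptor, had 17.4 and 18.6 CPM in 3311 and 101 and 73.1 CPM in 1027B (log2 fold change -2.27 ± 0.20 (SE), adjusted p = 5.02e-05), and the receptor Ephb3 stood at 24.4 and 19.1 against 129 and 137 CPM (log2 fold change -2.61). Rnf43 and Znrf3, ligases that remove WNT receptors and are themselves WNT-induced, stood at 22.1 and 28.1 against 33.9 and 29.7 CPM and 11.3 and 10.9 against 12.7 and 13.8 CPM and were not called (adjusted p = 0.179 and 0.38). Fzd5 and Lrp6, a WNT receptor and its co-receptor, were higher in 3311, at 219 and 158 against 79.03 and 92.8 CPM and 418 and 353 against 134 and 174 CPM (log2 fold changes 1.13 and 1.32). Of 10 WNT genes at the limit in both cultures, 4 were higher and 3 lower, where 25.5% and 25.9% of all such genes were. In the 3154 organoids Axin2 ranged over 0.0832 to 13.6 CPM and Lgr5 over 0 to 1.11 CPM.

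Genes of the BMP list differed in both directions, with 5 of 13 higher and 3 lower, where 25.5% and 25.9% of all such genes were. Id3 and Id1, inhibitors of differentiation that BMP induces, stood at 61.6 and 68.3 against 5.79 and 10.5 CPM (log2 fold change 3.00 ± 0.28 (SE), adjusted p = 6.56e-05) and 198 and 237 against 88.1 and 116 CPM (log2 fold change 1.09 ± 0.19 (SE), adjusted p = 0.00156). Smad9, a BMP-responsive SMAD, reached the limit in 3311 only, at 12.5 and 11.8 against 0 and 0.263 CPM (log2 fold change 6.54), and Bambi, a decoy receptor, stood at 23.8 and 18.7 against 2.45 and 3.52 CPM (log2 fold change 2.83). Each was higher in both 3311 libraries. Smad7, an inhibitory SMAD, was called lower, at 43.3 and 47.9 against 55.9 and 71.8 CPM (log2 fold change -0.49 ± 0.18 (SE), adjusted p = 0.048). That call was at the threshold: it was lost without 3311 replicate 1 or 2 (0.163 and 0.0678), without 1027B replicate 2 (0.398) and, at 0.0515 to 0.0570, with DESeq2, 2 other scalings, both other count filters and without mitochondrial or overlapping genes. Id2 and Smad6, further BMP-induced genes, were not called, at 213 and 328 against 320.2 and 373 CPM and 30.7 and 33.1 against 19.3 and 29.1 CPM, although Id2 was lower without 3311 replicate 2 (adjusted p = 0.0198) and Smad6 higher without 1027B replicate 2 (adjusted p = 0.0364). The receptor genes Bmpr1a and Acvr1 were not called, at 125 and 125 against 109.7 and 115 CPM and 43.9 and 45.7 against 46.6 and 35.9 CPM. The ligands Bmp4 and Bmp2 had 50.7 and 64.6 against 255 and 261 CPM (log2 fold change -2.16 ± 0.17 (SE), adjusted p = 2.99e-05) and 16.8 and 22.4 against 69.4 and 106 CPM (log2 fold change -2.16 ± 0.25 (SE), adjusted p = 1.96e-04). Grem1, a secreted BMP antagonist, reached the limit in 3311 only, at 22.8 and 26.3 against 0.188 and 0.842 CPM (log2 fold change 5.60). In 3154 Id3 spanned 7.59 to 107 CPM, which takes in the levels of 3311, and Bmp4 spanned 294 to 422 CPM, above both cultures.

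In the NOTCH list 1 of 9 members at the limit in both cultures was higher in 3311 and 5 were lower, where 25.5% and 25.9% of all such genes were. Fewer were called in either direction without 1027B replicate 2. The member called higher was the ligand Jag1, at 192 and 175 against 132 and 117 CPM (log2 fold change 0.56 ± 0.15 (SE), adjusted p = 0.0149), a call lost without 1027B replicate 2 (0.1103). Another ligand, Dll1, which reached the limit in 3311 only, stood at 34.3 and 44.8 against 0.377 and 0.0526 CPM (log2 fold change 7.44 ± 0.47 (SE), adjusted p = 9.20e-06); it shares part of its length with another gene. The receptor Notch3 had 0.959 and 1.21 CPM in 3311 and 19.2 and 50.3 CPM in 1027B (log2 fold change -5.00 ± 0.50 (SE), adjusted p = 9.91e-05), and Notch2 stood at 38.7 and 40.9 against 97.4 and 91.5 CPM (log2 fold change -1.25). Both receptors were lower in both 3311 libraries, while Notch1 was not called, at 117 and 113 against 117 and 136 CPM. The target Hes1 was lower, at 60.6 and 75.7 against 102 and 112 CPM (log2 fold change -0.65 ± 0.17 (SE), adjusted p = 0.0113), a call lost without 3311 replicate 1 (adjusted p = 0.0527) and without 1027B replicate 2 (0.0545).

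Targets of YAP and TEAD, which respond to cell shape and adhesion, went both ways: 7 of 22 at the limit in both cultures were higher and 8 lower in 3311, where 25.5% and 25.9% of all such genes were (median log2 fold change -0.12). Ankrd1, a nuclear protein, had 1.67 and 3.67 CPM in 3311 and 35.1 and 16.9 CPM in 1027B (log2 fold change -3.29 ± 0.46 (SE), adjusted p = 6.10e-04). The secreted matricellular gene Ccn2, which reached the limit in 1027B only, had 0.391 and 0.908 CPM in 3311 and 262 and 160.4 CPM in 1027B (log2 fold change -8.35 ± 0.41 (SE), adjusted p = 2.87e-06); another gene overlaps part of it. Both were lower in both 3311 libraries, whereas Ccn1, a relative of Ccn2, was not called, at 52.5 and 58.2 against 53.1 and 24.7 CPM (adjusted p = 0.202), except without 1027B replicate 1, where it was higher in 3311 (adjusted p = 0.000191). Axl, a receptor tyrosine kinase of mesenchymal-like tumour cells, had 318 and 268 CPM in 3311 and 3.67 and 3.16 CPM in 1027B (log2 fold change 6.42 ± 0.21 (SE), adjusted p = 6.42e-07). Crim1 stood at 235 and 305 against 57.9 and 47.8 CPM (log2 fold change 2.35) and Tead1, a DNA-binding partner of YAP, at 235 and 220.1 against 45.1 and 60.8 CPM (log2 fold change 2.10), both higher in 3311.

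Genes that respond to ERK signalling were more often higher than lower in 3311 without inhibitor. Of 19 members at the limit in both cultures, 10 were called higher and 2 lower (median log2 fold change 0.66). The feedback inhibitor Spry4 had 119 and 149 CPM in 3311 and 12.1 and 14.05 CPM in 1027B (log2 fold change 3.36 ± 0.19 (SE), adjusted p = 5.32e-06), and Spry1 stood at 178 and 161 against 44.3 and 50.6 CPM (log2 fold change 1.83). Dusp6, the phosphatase that switches off ERK, had 616 and 729 CPM in 3311 and 239 and 288 CPM in 1027B (log2 fold change 1.35 ± 0.18 (SE), adjusted p = 4.31e-04), and Etv4, an ETS factor, had 107 and 109 CPM in 3311 and 49.7 and 55.2 CPM in 1027B (log2 fold change 1.05 ± 0.15 (SE), adjusted p = 6.32e-04). These feedback genes showed no overlap between the cultures, as was so for 78.7% of all genes tested. Dusp5 and Spred2 were not called, at 44.05 and 73.3 against 58.7 and 59.8 CPM and 69.4 and 78.4 against 66.2 and 77.9 CPM. Ccnd1, cyclin D1, went the other way, at 104 and 119.8 against 452 and 441 CPM (log2 fold change -2.00 ± 0.16 (SE), adjusted p = 2.97e-05), and shares part of its length with another gene. The second member called lower, Phlda1, at 231 and 278 against 388 and 387 CPM, lost its call without 3311 replicate 1 (adjusted p = 0.0653).

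Ligands of the EGF family differed among themselves. Areg, amphiregulin, had 221 and 291 CPM in 3311 and 68.4 and 75.1 CPM in 1027B (log2 fold change 1.84 ± 0.18 (SE), adjusted p = 9.19e-05), and Ereg, epiregulin, had 121 and 207 CPM in 3311 and 32.01 and 29.99 CPM in 1027B (log2 fold change 2.40 ± 0.25 (SE), adjusted p = 1.32e-04). Btc, betacellulin, stood at 75.1 and 114 against 30.6 and 28.99 CPM (log2 fold change 1.67). The 3 ligands were higher in both 3311 libraries. Tgfa and Nrg1, the latter a ligand of other ERBB receptors, were lower, at 43.8 and 78.3 against 114 and 141 CPM (log2 fold change -1.06 ± 0.26 (SE), adjusted p = 0.00973) and 9.38 and 10.4 against 20.7 and 29.7 CPM (log2 fold change -1.35). Among the receptors Egfr stood at 23.2 and 22.7 against 15.9 and 13.4 CPM (log2 fold change 0.64 ± 0.21 (SE), adjusted p = 0.0297) and Erbb3 at 201 and 199 against 298 and 387 CPM (log2 fold change -0.77 ± 0.17 (SE), adjusted p = 0.00624). The call of Erbb3 was lost without 1027B replicate 2 (adjusted p = 0.0539). That of Egfr was lost without it (0.164), without either 3311 replicate (0.0617 and 0.0533) and with all 10 libraries in 1 fit (0.0560).

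Cytokine and chemokine genes were more often low in 3311: 7 of 13 members at the limit in both cultures were lower and 2 higher. Fewer were called lower without 3311 replicate 1 or without 1027B replicate 1, and fewer were called higher without 1027B replicate 2. Il33, an alarmin of epithelial nuclei, had 52.96 and 59.7 CPM in 3311 and 540.1 and 477 CPM in 1027B (log2 fold change -3.17 ± 0.17 (SE), adjusted p = 4.46e-06). Icam1, an adhesion molecule induced by NF-kB, had 15.3 and 18.9 CPM in 3311 and 165 and 118 CPM in 1027B (log2 fold change -3.05 ± 0.22 (SE), adjusted p = 1.62e-05), and Tnfaip3, the NF-kB inhibitor A20, stood at 4.58 and 10.6 against 49.7 and 41.3 CPM (log2 fold change -2.59). Cxcl5, a neutrophil chemokine, reached the limit in 1027B only, at 0.0355 and 0.113 against 17.4 and 10.99 CPM (log2 fold change -7.50). In the 3154 ethanol libraries Il33 ranged over 31.5 to 76.2 CPM and Cxcl5 over 0.166 to 1.26 CPM, both far under 1027B. Icam1 lay between the cultures there, at 24.5 to 64.3 CPM. Nfkbia, the classical NF-kB feedback gene, was not called, at 54.8 and 60.6 against 60.6 and 60.5 CPM. Ccl20, a chemokine that draws CCR6-bearing cells, was called higher, at 30.1 and 33.7 against 14.97 and 9.73 CPM (log2 fold change 1.37). Il1rn, the interleukin 1 receptor antagonist, reached the limit in 3311 only, at 28.1 and 52.1 against 0.941 and 0.316 CPM (log2 fold change 5.96 ± 0.49 (SE), adjusted p = 3.44e-05).

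Of 12 interferon-stimulated genes at the limit in both cultures, 3 were higher and 1 lower, where 25.5% and 25.9% of all such genes were. The numbers shifted when some single libraries were left out. Sting1, the sensor of cytosolic DNA signals, had 44.97 and 61.8 CPM in 3311 and 0.847 and 0.736 CPM in 1027B (log2 fold change 6.06 ± 0.29 (SE), adjusted p = 2.70e-06). Outside that count, Mx1, an interferon-induced antiviral GTPase, reached the limit in 1027B only and had 0.178 and 0.265 CPM in 3311 and 53.2 and 44.3 CPM in 1027B (log2 fold change -7.76 ± 0.31 (SE), adjusted p = 1.34e-06), and Irf7, a factor that induces interferon genes, reached it in 3311 only, at 6.22 and 4.77 against 0.894 and 0.316 CPM (log2 fold change 3.15). Of 9 genes of MHC class I antigen presentation at the limit in both cultures, 3 were higher and 4 lower, to be set beside the same shares. Among them B2m, the light chain, had 69.7 and 57.2 CPM in 3311 and 10.4 and 5.94 CPM in 1027B (log2 fold change 2.96 ± 0.28 (SE), adjusted p = 6.86e-05), while the heavy chain H2-K1 had 136 and 125 CPM in 3311 and 452 and 503 CPM in 1027B (log2 fold change -1.87 ± 0.16 (SE), adjusted p = 4.24e-05). H2-D1, a second heavy chain, was not called, at 119 and 116 against 145 and 115 CPM; reads of these near-identical genes may be split between copies. The light and heavy chain thus differed in opposite directions.

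Cholesterol synthesis genes were lower in 3311. Of 20 members, 12 were called lower and 2 higher (median log2 fold change -0.72). Cyp51, lanosterol demethylase, had 196 and 155 CPM in 3311 and 656 and 720.1 CPM in 1027B (log2 fold change -1.97 ± 0.18 (SE), adjusted p = 6.44e-05), and Mvd, of the mevalonate pathway, had 48.8 and 50.005 CPM in 3311 and 161 and 231 CPM in 1027B (log2 fold change -1.99 ± 0.20 (SE), adjusted p = 9.89e-05). Fdps, which makes farnesyl diphosphate, stood at 121 and 98.2 against 284 and 330.3 CPM (log2 fold change -1.49). These 3 enzymes were lower in both 3311 libraries. Without 3311 replicate 1, without 1027B replicate 1 and with replicate number as a term the number higher was 1. Of the fatty acid genes, the desaturases Scd1 and Scd2 were lower in 3311, at 559.8 and 449 against 1549.9 and 3629 CPM (log2 fold change -2.36 ± 0.37 (SE), adjusted p = 0.00108) and 2846 and 2871 against 5134 and 6879.6 CPM (log2 fold change -1.07), and the elongase Elovl6 was not called, at 81.2 and 105 against 98.8 and 119.8 CPM. Cpt1a, the gate of fatty acid oxidation, was higher, at 98.3 and 94.2 against 51.5 and 48.1 CPM (log2 fold change 0.95).

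Most genes of the joint list of glycolysis and hypoxia response did not pass the test. Of 24 members at the limit in both cultures, 3 were higher and 6 lower (median log2 fold change -0.27), where 25.5% and 25.9% of all such genes were. The higher ones were Pfkp and the hypoxia genes Ndrg1 and P4ha1, the last 2 at 3237 and 5266 against 850.2 and 1431 CPM and 414 and 339.9 against 212 and 246 CPM. Gapdh stood at 12286 and 11147 against 10838 and 13682 CPM and Ldha at 3148 and 3324 against 3950.1 and 3849 CPM, both not called. Pfkp, the platelet isoform of phosphofructokinase, had 395 and 545 CPM in 3311 and 26.8 and 31.4 CPM in 1027B (log2 fold change 4.01 ± 0.22 (SE), adjusted p = 4.52e-06), while its relative Pfkl was not called, at 551 and 756 against 614 and 702 CPM. In 3154 Pfkp ranged over 312 to 444 CPM, so the low level was that of 1027B. Pfkfb3, which makes the activator of phosphofructokinase, was lower in 3311, at 35.1 and 63.96 against 319 and 343 CPM (log2 fold change -2.74 ± 0.27 (SE), adjusted p = 9.45e-05), as was the lactate exporter Slc16a3, at 86.2 and 145 against 461 and 503 CPM (log2 fold change -2.06).

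Detoxification enzymes differed in both directions. Cyp1b1, a cytochrome P450 induced by the aryl hydrocarbon receptor, reached the limit in 1027B only and had 0.249 and 0.113 CPM in 3311 and 479 and 550.3 CPM in 1027B (log2 fold change -11.42 ± 0.31 (SE), adjusted p = 5.57e-07). Aldh3a1, an aldehyde dehydrogenase of the same regulon, stood at 0.568 and 0.86998 against 60.8 and 59.9 CPM (log2 fold change -6.39). Gsto1, a glutathione transferase, had 128 and 135 CPM in 3311 and 1639.98 and 1465 CPM in 1027B (log2 fold change -3.56 ± 0.18 (SE), adjusted p = 3.57e-06), and Slc7a11, the cystine importer, had 56.3 and 57.7 CPM in 3311 and 273 and 337 CPM in 1027B (log2 fold change -2.42 ± 0.17 (SE), adjusted p = 1.51e-05). In the 3154 ethanol libraries Aldh3a1 ranged over 0.700 to 2.14 CPM, near 3311, and Cyp1b1 over 103 to 280 CPM, between the cultures. The 4 genes were lower in both 3311 libraries. Higher there were Cyp2c65, a cytochrome P450 of the gut, at 231 and 324 against 13.9 and 24.6 CPM (log2 fold change 3.85 ± 0.30 (SE), adjusted p = 2.65e-05), and Ugt2b34, a glucuronyl transferase, at 205 and 317 against 24.9 and 17.5 CPM (log2 fold change 3.62 ± 0.27 (SE), adjusted p = 2.09e-05). Ugt1a7c, which reached the limit in 3311 only, was higher too, at 132 and 146 against 0.0471 and 0.2104 CPM, but shares 54.6% of its length with other genes, so its reads are uncertain. In all 4 of 22 members at the limit in both cultures were higher and 12 lower, where 25.5% and 25.9% of all such genes were.

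Of 20 genes of the ATF4 stress response 6 were higher and 6 lower, near the shares of 25.5% and 25.9% over all genes at the limit in both cultures. Ddit3, the stress factor CHOP, was higher in 3311, at 139 and 89.9 against 15.96 and 15.5 CPM (log2 fold change 2.87 ± 0.23 (SE), adjusted p = 3.17e-05), and Gdf15, a stress cytokine, was lower, at 2.56 and 2.08 against 23.7 and 31.6 CPM (log2 fold change -3.57 ± 0.28 (SE), adjusted p = 2.54e-05). Asns and Trib3 were not called, at 188 and 171 against 193 and 204 CPM and 107 and 126 against 98.1 and 142 CPM. Beside the low Trp53 level, p53 targets and cell cycle inhibitors, counted as 1 list, went both ways: 8 of 18 at the limit in both cultures were higher in 3311 and 3 lower. Phlda3, an Akt inhibitor, reached the limit in 3311 only, at 24.05 and 23.4 against 0.471 and 0.105 CPM (log2 fold change 6.30 ± 0.45 (SE), adjusted p = 1.71e-05), and Trp53inp1 stood at 199 and 104 against 19.6 and 15.4 CPM (log2 fold change 3.11). Mdm2, the p53 ligase, was slightly higher, at 87.5 and 75.9 against 57.7 and 54.97 CPM (log2 fold change 0.54 ± 0.15 (SE), adjusted p = 0.019), a call lost without 3311 replicate 1 (adjusted p = 0.0606), 1027B replicate 1 (0.0699) or 1027B replicate 2 (0.0981). Cdkn2a, the locus of p16 and ARF, stood at 403 and 391 against 174 and 180.02 CPM (log2 fold change 1.17 ± 0.15 (SE), adjusted p = 3.51e-04), higher in both 3311 libraries. Cdkn1a, the inhibitor p21, was lower, at 113 and 274 against 306 and 536 CPM (log2 fold change -1.12 ± 0.40 (SE), adjusted p = 0.0442), a call that was lost without 3311 replicate 1 (adjusted p = 0.171), with DESeq2 (0.192) and with all 10 libraries in 1 fit (0.0521).

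DNA replication genes were lower in 3311 almost throughout. All 29 members reached the limit in both cultures; 26 were called lower and 0 higher (median log2 fold change -1.42, against a value that rounds to 0 over all such genes). Rrm2, a subunit of ribonucleotide reductase, had 6.86 and 9.95 CPM in 3311 and 77.998 and 78.96 CPM in 1027B (log2 fold change -3.22 ± 0.22 (SE), adjusted p = 1.26e-05). Mcm5, of the replicative helicase, had 21.3 and 20.7 CPM in 3311 and 113 and 111 CPM in 1027B (log2 fold change -2.41 ± 0.15 (SE), adjusted p = 9.31e-06), and its partner Mcm6 had 59.7 and 62.5 CPM in 3311 and 107 and 98.8 CPM in 1027B (log2 fold change -0.75 ± 0.15 (SE), adjusted p = 0.00309). For all 3 both 3311 libraries lay below both 1027B libraries. Pola1, the catalytic subunit of the priming polymerase, stood at 18.9 and 17.4 against 35.1 and 36.7 CPM (log2 fold change -0.98). Pcna, the sliding clamp, stood at 87.4 and 109 against 359 and 348 CPM (log2 fold change -1.85) and Ccne2, cyclin E2, at 3.13 and 2.76 against 22.5 and 17.5 CPM (log2 fold change -2.76). The 3 members that were not called were Cdt1, Rfc3 and E2f1, at 72.6 and 55.2 against 53.4 and 55.5 CPM, 19.9 and 15.5 against 24.1 and 22.3 CPM and 16.8 and 28.8 against 32.2 and 34.9 CPM; E2f1 was called lower without 3311 replicate 2 (adjusted p = 0.00783). The number called lower was 25 without 1027B replicate 2 and 26 without any other single library.

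Of 29 mitosis genes 19 were called lower and 0 higher (median log2 fold change -0.95). Kif11, the motor that separates spindle poles, had 42.8 and 30.3 CPM in 3311 and 141 and 172 CPM in 1027B (log2 fold change -2.10 ± 0.21 (SE), adjusted p = 9.36e-05). Bub1, a spindle checkpoint kinase, had 38.9 and 28.6 CPM in 3311 and 109 and 134 CPM in 1027B (log2 fold change -1.85 ± 0.20 (SE), adjusted p = 1.47e-04). Ccna2, cyclin A2, stood at 59.1 and 28.7 against 145 and 179 CPM (log2 fold change -1.88), and the proliferation marker Mki67 at 221 and 126 against 347 and 467 CPM (log2 fold change -1.23 ± 0.27 (SE), adjusted p = 0.00592). None of the 4 overlapped between the cultures, as was so for 78.7% of all genes tested. Members not called included Cdk1 at 98.6 and 77.01 against 74.4 and 118 CPM and Cenpa, a centromeric histone, at 107 and 52.2 against 64.2 and 92.1 CPM. Of 23 genes of Myc and ribosome biogenesis 7 were higher and 6 lower, near the shares of 25.5% and 25.9% over all such genes; without 1027B replicate 1 the number higher was 4 and without 1027B replicate 2 it was 3. Myc itself was higher in 3311, at 89.5 and 119 against 62.7 and 46.6 CPM (log2 fold change 0.93 ± 0.21 (SE), adjusted p = 0.00575), Mycn was lower, at 49.6 and 49.9 against 91.1 and 118 CPM (log2 fold change -1.07), and the ribosome factor Utp20 was higher, at 146 and 152 against 36.8 and 38.2 CPM (log2 fold change 1.99).

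**Figure D3:**
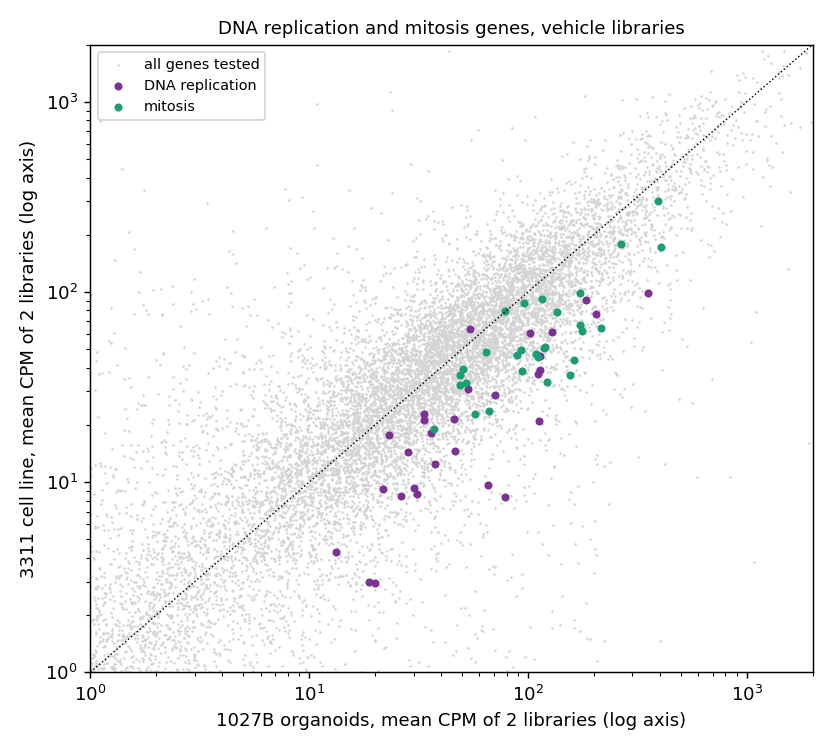
Mean CPM of each gene over the 2 libraries of 1027B (x axis) and of 3311 (y axis), both on log scales from 1 to 2000 CPM; grey points are all tested genes in that range, coloured points the DNA replication and mitosis lists, and the dotted line marks equal levels. All but Cdt1 of the 29 replication genes and all but Cenpa of the mitosis genes lie under the line.

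E2F factors drive replication genes through the letters TTTNGCGC (other strand GCGCNAAA), and the CCAAT box (other strand ATTGG) recurs in promoters of mitosis genes. In the 250 bases before the start, TTTNGCGC was found in 4 of 23 replication promoters (17.4%) against 1.15% of all 27025 promoters. CCAAT was found in 20 of 24 mitosis promoters (83.3%) against 34.5% of all promoters. Both lists were chosen by function and all matches are descriptive. Pola1 and Mcm6 are shown for the E2F letters, and Kif11 and Bub1 for the CCAAT box, as members that were lower in 3311; overlapping matches run together in capitals. Pola1 lies at chrX:93632156-93632405, minus strand, Mcm6 at chr1:128359706-128359955, minus strand, Kif11 at chr19:37376132-37376381, plus strand and Bub1 at chr2:127831860-127832109, minus strand (RefSeq, GRCm38.p6).
Pola1: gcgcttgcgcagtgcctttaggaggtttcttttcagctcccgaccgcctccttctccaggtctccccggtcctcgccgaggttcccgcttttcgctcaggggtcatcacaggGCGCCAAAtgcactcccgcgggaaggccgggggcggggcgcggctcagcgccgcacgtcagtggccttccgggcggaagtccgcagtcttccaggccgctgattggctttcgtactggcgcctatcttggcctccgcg
Mcm6: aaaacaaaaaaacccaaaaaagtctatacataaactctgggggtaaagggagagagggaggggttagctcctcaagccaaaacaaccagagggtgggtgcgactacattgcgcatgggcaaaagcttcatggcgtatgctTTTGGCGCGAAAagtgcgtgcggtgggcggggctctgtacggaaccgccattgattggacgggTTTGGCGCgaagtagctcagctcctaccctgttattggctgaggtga
Kif11: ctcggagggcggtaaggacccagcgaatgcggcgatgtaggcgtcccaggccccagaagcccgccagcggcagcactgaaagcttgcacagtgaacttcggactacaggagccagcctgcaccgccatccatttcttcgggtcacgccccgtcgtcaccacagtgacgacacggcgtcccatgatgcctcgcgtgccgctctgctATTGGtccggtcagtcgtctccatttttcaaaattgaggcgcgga
Bub1: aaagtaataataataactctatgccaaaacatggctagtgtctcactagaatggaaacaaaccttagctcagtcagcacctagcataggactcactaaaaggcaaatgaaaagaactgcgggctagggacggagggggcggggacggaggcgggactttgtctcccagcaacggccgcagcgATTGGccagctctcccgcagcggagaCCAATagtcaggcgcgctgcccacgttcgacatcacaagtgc
Members holding the letters were not all called: Rfc3 held TTTNGCGC and Cdk1 held CCAAT, and neither was called.

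Protein genes of the mitochondrial genome were called lower for 7 of 12 and higher for 0, but the 2 organoid libraries differed in their mitochondrial share. For mt-Nd5, a subunit of complex I, the levels were 676 and 756 against 3641 and 1873 CPM (log2 fold change -1.94 ± 0.31 (SE), adjusted p = 0.00106), and for mt-Co1, of complex IV, 8925 and 8325 against 13364 and 6487 CPM (not called, adjusted p = 0.637). Without 1027B replicate 1 the number called lower was 4, without 3311 replicate 1 it was 3, without 3311 replicate 2 it was 4 and without 1027B replicate 2 it was 10. Reads of these genes can be shared with nuclear copies. Xist, the RNA that silences 1 X chromosome in female cells, was expressed in both cultures, at 661 and 459 against 450.3 and 816 CPM (not called, adjusted p = 0.639).

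Imprinted genes, which are transcribed from 1 parental copy, were few among the genes tested. Among the 8 members at the limit in both cultures 3 were higher, Impact, Peg13 and Phlda2, and 2 lower, too few to set beside the shares over all genes. Impact, a regulator of translation, stood at 54.3 and 63.3 against 10.03 and 10.2 CPM (log2 fold change 2.54 ± 0.19 (SE), adjusted p = 1.86e-05). A further 3 reached the limit in 3311 only. Peg10, a retrotransposon-derived placental gene, had 61.6 and 107 CPM in 3311 and 0.188 and 0.316 CPM in 1027B (log2 fold change 8.38 ± 0.43 (SE), adjusted p = 3.35e-06), and its neighbour Sgce stood at 42.7 and 36.2 against 0.518 and 0.421 CPM (log2 fold change 6.37 ± 0.29 (SE), adjusted p = 2.41e-06). Mest had 49.6 and 52.6 CPM in 3311 and 0.141 and 0.473 CPM in 1027B (log2 fold change 7.39 ± 0.37 (SE), adjusted p = 3.23e-06); another gene overlaps part of it. Peg10, Sgce and Mest are expressed from the paternal copy, and all 3 were under 1 CPM in both organoid libraries. Plagl1, a zinc finger gene also expressed from the paternal copy and at the limit in both cultures, went the other way, at 0.853 and 2.61 against 33.2 and 34.2 CPM (log2 fold change -4.29 ± 0.44 (SE), adjusted p = 1.09e-04). Igf2r and Gnas were not called, at 152 and 165 against 162 and 182 CPM and 1287 and 1066 against 1156 and 1142 CPM.

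The genes described next were taken from the largest fitted log2 fold changes among calls with a mean of at least 10 CPM in either culture. For a gene at 0 in 1 culture the fitted value is no bound, so their order is not established, and members of the lists had differences of similar size. Every gene described here reached the limit only in the culture where it is high. Malrd1, a gut regulator of bile acid feedback, had 189 and 238 CPM in 3311 and no counts in either 1027B library (at least 1427-fold higher in 3311, adjusted p = 1.12e-06). Lama2, the laminin alpha chain of muscle basement membrane, had 163 and 140.03 CPM in 3311 and no counts in either 1027B library (at least 1012-fold higher in 3311, adjusted p = 1.03e-06), and Cdh13, a cadherin without a membrane-spanning tail, had 26.9 and 22.5 CPM in 3311 and no counts in either 1027B library (at least 165-fold higher in 3311, adjusted p = 7.56e-06). None of the 3 gave a read in either organoid library. Kank1, a cortical adhesion scaffold, Tnik, a kinase of WNT signalling, and Lix1l were at 0 in both organoid libraries as well, with 34.8 and 38.1 against 0 and 0 CPM, 24.8 and 20.1 against 0 and 0 CPM and 32.4 and 31.96 against 0 and 0 CPM. Raet1e and Raet1d, ligands of the NK cell receptor NKG2D from a family of close copies, stood at 78.3 and 68.7 against 0 and 0 CPM and 21.8 and 23.8 against 0 and 0 CPM. In the other direction, Mal, an apical membrane proteolipid, had 0.07105 and 0.189 CPM in 3311 and 795 and 787 CPM in 1027B (log2 fold change -12.53 ± 0.32 (SE), adjusted p = 5.57e-07). Sprr2a3, of the cornified envelope and one of several close copies, had 0 and 0.0378 CPM in 3311 and 393 and 303 CPM in 1027B (a ratio of 19138, 1027B over 3311, 95% counting interval 3434 to 755948, adjusted p = 6.15e-07). Stra6, a retinol transporter, and Fbln2, a matrix fibulin, gave no reads in 3311, with 0 and 0 against 24.9 and 8.36 CPM and 0 and 0 against 17.4 and 13.9 CPM. Clic3, an intracellular chloride channel, had 0 and 0.0378 CPM in 3311 and 72.6 and 74.1 CPM in 1027B (a ratio of 4001, 1027B over 3311, 95% counting interval 717 to 158067, adjusted p = 6.89e-07).

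Other cell types were looked for by their markers. Immune markers summed to 4.40 and 11.3 CPM in 3311, nearly all from Csf1r, and to 2.21 and 1.37 CPM in 1027B. Csf1r, the macrophage growth factor receptor, reached the limit in 3311 only and had 4.48 and 11.1 CPM in 3311 and 0.471 and 0.368 CPM in 1027B (log2 fold change 4.19 ± 0.57 (SE), adjusted p = 5.13e-04), while Ptprc, the pan-leukocyte antigen CD45, reached it in 1027B only and had no counts in either 3311 library and 1.74 and 1.05 CPM in 1027B. The endothelial markers, 5 genes of which Pecam1 gave nearly all counts, summed to at most 1.43 CPM in any library. Of a longer endothelial list Pecam1 and Eng, which reached the limit in 3311 only, were called higher there, at 1.39 and 1.25 against 0.377 and 0.2104 CPM and 2.45 and 3.63 against 0.0471 and 0.105 CPM; the call of Pecam1 was lost without 3311 replicate 1 (adjusted p = 0.0602) and without 1027B replicate 2 (0.103). A set of 6 fibroblast markers summed to 20.2 and 25.4 CPM in 3311 and to 0.518 and 0.863 CPM in 1027B. In 3311 they came mainly from Pdgfra, a growth factor receptor, at 13.1 and 12.8 against 0.235 and 0.105 CPM (log2 fold change 6.18 ± 0.44 (SE), adjusted p = 1.56e-05), and from Pdgfrb, listed for 3311 only, at 5.34 and 10.98 CPM. Pdpn, of a longer fibroblast list and also a gene of alveolar type 1 cells, went the other way and reached the limit in 1027B only, at 0 and 0.0378 against 1.98 and 1.68 CPM, and Fap is listed for 1027B only, at 0.0471 and 0.152 CPM. Pdgfra and Col1a1 reached the limit in 3311 only. Col1a1, the main fibroblast collagen, was not called, at 1.99 and 1.29 against 0.282 and 0.789 CPM, but was called higher in 3311 without 1027B replicate 2 (adjusted p = 0.0192) and under 5 other alternatives (0.0343 to 0.0485). Col1a2 and Dcn, a second collagen chain and a matrix proteoglycan, are listed for 3311 only, at 0 and 0 CPM and 0 and 0.0771 CPM. In 3311, then, both PDGF receptor genes were detected, while RNA of the fibrillar collagen genes was low. The part of other cell types in the differences above was not tested.

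Differences were unevenly spread over the chromosomes. The median log2 fold change was -0.63 over 508 tested genes of chromosome 12 and -0.62 over 517 of chromosome 19, it was -0.42 over 1101 of chromosome 2, and it was 0.44 on chromosome 11, 0.40 on chromosome 15 and 0.37 on chromosome 10. On chromosome 12, 50.6% of genes were called lower in 3311 and 11.4% higher, and on chromosome 11, 13.8% and 42.7%. Over the 4 pairs of libraries the median ranged from -0.68 to -0.59 for chromosome 12 and from -0.71 to -0.54 for chromosome 19. The shift ran along the whole of both chromosomes: all 6 windows of 20 Mb on chromosome 12 had medians from -1.02 to -0.46, and all 3 on chromosome 19 from -0.70 to -0.40. Of 137 windows with at least 20 tested genes in the genome, 20 had a median under -0.4 and 18 over 0.4. Set beside the 2-week 3154 ethanol libraries, chromosome 12 was at 0.67 in 1027B and 0.06 in 3311, and chromosome 19 at 0.13 in 1027B and -0.46 in 3311. Chromosome 14 was low against 3154 in both (-0.63 and -0.51), so that it barely differed between them (0.04). The number of copies of any chromosome was not measured.

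**Figure D4:**
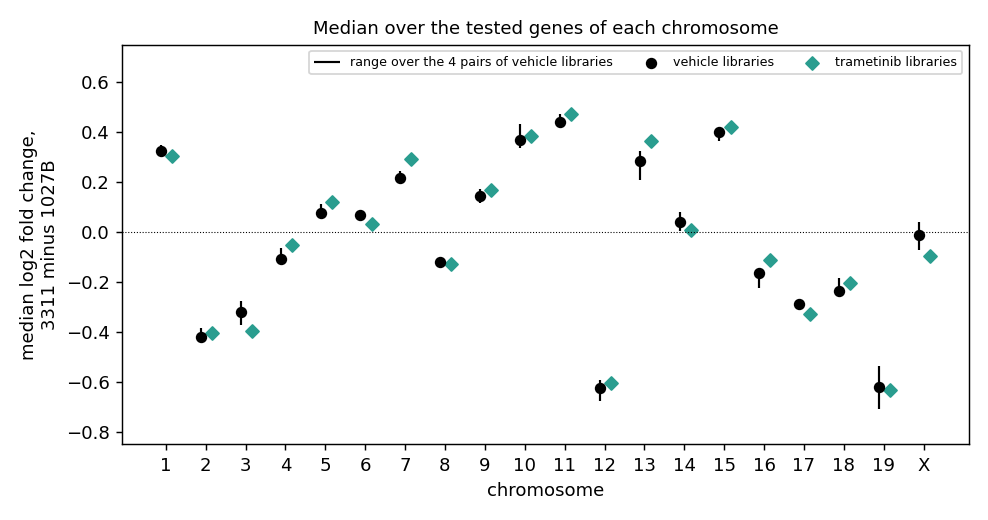
Median log2 fold change between 3311 and 1027B (y axis) over the tested genes of each chromosome (x axis); circles are the vehicle libraries with the range over their 4 pairs, diamonds the trametinib libraries. Chromosomes 12 and 19 lie near -0.6 in both sets of libraries, and chromosome 11 near 0.4 to 0.5.

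The same 2 cultures were compared in separate libraries after 48 h of the MEK inhibitor trametinib, at 50 nM for 3311 and 10 nM for 1027B, so the doses differ. There 8041 of 14191 genes (56.7%) were called. Of 7231 baseline calls also tested there, 5263 (72.8%) were called in the same direction and 184 in the opposite one; of the 7849 trametinib calls also tested at baseline, the 5263 are 67.1%. The log2 fold change of Rab25 was -8.39, adjusted p = 1.81e-05 and that of Esrp1 -5.61, adjusted p = 3.30e-05. Cdh17 stood at 10.87, adjusted p = 5.43e-05, Nid1 at 7.38, adjusted p = 9.82e-05 and Trp53 at -3.36, adjusted p = 2.52e-05. Of the ERK response genes, Spry4 was at 4.01, adjusted p = 0.00117, higher in 3311, whereas Etv4 was at -1.71, adjusted p = 0.0108, lower in 3311. For Mki67 the value was -4.03, adjusted p = 7.88e-04 and for Gkn2 -0.65, adjusted p = 0.287, not called. Chromosome medians were close to those at baseline, at -0.61 for chromosome 12, -0.63 for chromosome 19 and 0.47 for chromosome 11. Whether any gene's difference changed between vehicle and trametinib libraries was not tested.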

How the data were processed

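Per the labels, libraries were stranded, made from poly(A) RNA (Trizol, then a column) and sequenced as read pairs. The authors deposited raw counts for each Ensembl gene, in 1 table for 3311 (17260 genes) and 1 for 1027B (16553 genes). The submitters' processing notes name cutadapt 3.5, STAR 2.7.6a and featureCounts 1.6.3, and the builds mm10, mm39 and hg38 without saying which table used which; the strand setting of the counting is not given in the sources used here. The tables had been filtered, since they list different genes, and genes listed in 1 table only (2144 and 1437) entered no test. The 2 tables carry the same symbol and biotype for all 15116 joined genes. The 3311 columns name treatment and replicate but no line and were assigned from the name of their table.

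The 4 vehicle libraries were fitted alone with edgeR 4.0.16 in R 4.3.3 (filterByExpr, TMM factors, quasi-likelihood F-test, Benjamini-Hochberg adjustment over 14028 genes, limit 0.05). Total counts and floors per library are given with the results. CPM use the joined genes; levels in 3154, marker sums and genes listed in 1 table were scaled within their own table. Where a group had 0 counts, the fold is a lower bound against 3 counts per library, and with 1 to 3 counts a ratio with an exact 95% interval; both cover counting error only. On simulated counts, 81.8% of 198 genes changed 3-fold were called in the right direction, and 9.50% of calls were unchanged genes (13840 genes). That share exceeded the limit of 0.05. Only the 198 genes were changed there, whereas 52.3% of genes were called in the data, so both rates need not hold for this comparison. Same-numbered replicates of the cultures did not deviate together (correlation -0.0005), so numbers were not treated as pairs. The 36 gene lists were written from general knowledge. Members and lists were chosen with earlier results of these data known. Named were the engineered genes, Hnf4a and Nkx2-1, up to 3 called list members in each direction, and the 10 largest called rises and falls with a mean of 10 CPM or more in 1 group and no overlap, from which a selection is printed. Other list members, chiefly those not called, were chosen after their values were seen. Genes that overlap another gene were marked with GENCODE M21. Promoters were matched by symbol to RefSeq (GRCm38.p6), 250 bases before the first listed start. Alternatives were DESeq2 1.42.0, other scaling factors and count filters, a fit of all 10 libraries, the replicate number as a block, a 2-fold limit, fewer genes, and leaving out each library. Results for some genes are not reported here.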

Additional observations from a re-analysis of the deposited data

Results flagged for a closer look

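Genes listed in the table of 1 culture only stayed out of the comparison, and some of them carried a clear signal. Of those listed for 3311, 142 genes had at least 10 CPM in both vehicle libraries, and of those listed for 1027B, 59 did. What the other culture's level was is not analysed here, so none of these is a difference between the cultures. The values in this section are mean CPM of the 2 vehicle libraries, each scaled within its own table.

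Listed for 1027B only were the surface mucous genes Tff1 (2242), Muc5ac (622) and Anxa10 (317), with Vsig2 (87.3) beside them. The alveolar genes Sftpd (197), Lamp3 (174), Slc34a2 (129), Cxcl15 (129) and Lyz1 (16.4) were listed there only as well, the first of them encoding surfactant protein D. Others were the glutathione transferase Gstp1 (184), the imprinted gene Grb10 (123), the lipid carrier Fabp4 (86.0), haptoglobin Hp (42.4), the tricellular junction gene Marveld2 (22.3) and the ligand Wnt7b (19.5).

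Listed for 3311 only were the intestinal genes Cdhr5 (225), Cdx2 (117), Fabp1 (78.7), Tff3 (31.5) and Anpep (20.3). The liver and clotting genes F5 (92.2) and Fgb (53.9), the factor Prox1 (67.1) and Agr2 (53.7), which folds mucins, were in the same set. The imprinted genes Peg3 (433) and H19 (61.6) and the chromatin protein Hmga2 (107) of fetal tissue were listed for 3311 only. So were the mesenchymal genes Zeb1 (45.2), Cdh2 (24.8) and Zeb2 (11.2) and the laminin chain Lama1 (34.1).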

How the results depend on the processing

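The count of calls between the vehicle libraries, 7339, stayed within 1.5 times that number under other scaling factors, count filters, DESeq2 (7230) and 1 fit of all 10 libraries (8439), and ranged over 6075 to 6845 when each library was left out in turn. In the trametinib libraries the count of 8041 ranged over 6181 to 6731 without 1 library. Leaving out genes that overlap another gene, which tests fewer genes (8903), gave 4702 and 5058 calls, and asking for at least 2-fold gave 4663 and 4432. Same-numbered libraries of the cultures share only a number; with the replicate block the counts were 6920 and 7950, and among named genes Sftpb lost its call. Of 213 named genes 194 held their call under every alternative run and none reversed; the 19 others are stated with their values. Of 501 alternative medians over the tested members of the 36 lists, 439 stayed within the spread between replicates, 59 moved and 3 reversed. The lineage regulators had 0.084 and the fibroblast markers -2.31 without overlapping genes, and the endothelial markers -0.43 with at least 10 counts in every library. All 3 rest on fewer members than the medians they replace. With 1 library left out, the remaining library of its group is assumed to vary like the other group. The depth did not allow levels under 0.107 to 0.158 CPM to be told from 0.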
